A study of Mus musculus with 12 samples.

Results

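The 10 genes described here code for proteins of the lipid droplet, the organelle in which cells store triglyceride, and for the fatty acid receptor Cd36. They were the perilipin genes Plin2, Plin4 and Plin5, the CIDE genes Cidea, Cideb and Cidec, the lipase gene Pnpla2 with its inhibitor gene G0s2, the droplet formation gene Fitm2, and Cd36. Members were the rows of the deposited expression table whose gene symbol in the platform's annotation was one of these names. Each of the 10 had exactly 1 probe set, out of 18784 named genes in the table. The series measured RNA in the liver of 12 mice with 1 Affymetrix whole-transcript array per mouse, and compared mice of the KK strain, which are prone to diabetes with obesity, with the common laboratory strain C57BL/6J.

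The 4 groups were C57BL/6J females, C57BL/6J males, KK females and KK males, with 3 mice in each. No mouse carried a transgene or received a drug according to the labels, and all shared a chow diet, an age of 8 weeks, 3 days of single housing and a fast of 4 hours. After death by cervical dislocation the mice were perfused through with PBS, and the large lobe was taken. The strain label reads KK/HIJ, while the source label of the same mice reads KK/J. Values are log2 expression levels, on which a difference of 1 is a change of 2-fold. A probe set was called where limma's adjusted p was under 0.05 over all 21212 probe sets. Differences are KK minus C57BL/6J, or male minus female, with their standard error (SE) and n = 3 mice per group. Only 3 mice per group limit the precision, and the labels do not say whether any were littermates.

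A lipid droplet is a core of neutral lipid under a layer of phospholipid, and its coat proteins decide how fast lipases reach the core. Perilipins form that coat, CIDE proteins bring droplets together so that they exchange and enlarge, and Fitm2, a protein of the endoplasmic reticulum, takes part in the release of new droplets. Pnpla2 codes for adipose triglyceride lipase, which removes the first fatty acid from triglyceride, and the G0s2 protein inhibits it. In liver Plin2 is the main perilipin of hepatocyte droplets and Plin5 links droplets to mitochondria, whereas Cidea and Cidec are low in lean liver and are known from adipose tissue and fatty liver. Cd36 brings long-chain fatty acids and oxidised lipoproteins into cells, and hepatocytes, macrophages and endothelial cells of the liver can all carry it.

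The arrays were alike in overall level, with medians of 5.90 to 6.03 and interquartile ranges of 2.64 to 2.97. Across all probe sets, which do not count as replicates, Pearson correlations were 0.992 to 0.996 within groups and 0.975 to 0.993 between them. The labelled tissue was checked against hepatocyte markers: albumin (Alb) read 13.92 to 14.02 in all 12 arrays. The summed linear level of 7 hepatocyte markers ran from 80570 to 88280. It was lowest in KK males, at 80570 to 82030, and the next lowest array was a KK female at 82331. Of the 7, 1 was called over both sexes, beside 11.7% of all probe sets: Apoa1, lower in KK (-0.34, adjusted p = 0.000544). Between the sexes of KK, Apoa1 was called higher and Ahsg lower in males. The level of absent transcripts was read from 3 genes of the Y chromosome in the 6 female arrays, and spanned 3.79 to 4.66. Of the 10 members, Cidea came closest to that range, with values of 4.48 to 5.07, and the other 9 lay above it in every array. The range rests on these 3 genes alone, so lying above it does not show that a gene was expressed. Ucp1, a marker of brown fat cells, also lay above it, at 4.84 to 5.09. The mean of Cidec lay at percentile 45.6 of all probe sets and that of Plin4 at 53.2.

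The sequences just upstream of the start of Cd36, Plin4 and Plin5 are shown because Cd36 was the member called in every comparison of groups and because Plin4 and Plin5 are direct neighbours on chromosome 17. They are the 250 bases before the annotated start of a RefSeq transcript in build GRCm38.p6, read 5′ to 3′ on the minus strand. They lie at chr5:17835897-17836146, chr17:56109783-56110032 and chr17:56117549-56117798. In each case the gene model reaches further upstream than this start. Capitals mark the motifs that were searched for.
Cd36: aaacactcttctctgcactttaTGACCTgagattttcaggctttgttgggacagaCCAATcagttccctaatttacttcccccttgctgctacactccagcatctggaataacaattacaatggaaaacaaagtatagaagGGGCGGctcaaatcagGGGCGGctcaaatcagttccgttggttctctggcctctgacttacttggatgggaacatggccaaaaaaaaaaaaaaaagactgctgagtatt
Plin4: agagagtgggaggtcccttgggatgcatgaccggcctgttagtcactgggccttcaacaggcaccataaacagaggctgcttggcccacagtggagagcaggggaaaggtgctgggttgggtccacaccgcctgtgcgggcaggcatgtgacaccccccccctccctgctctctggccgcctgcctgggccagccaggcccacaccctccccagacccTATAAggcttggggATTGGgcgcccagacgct
Plin5: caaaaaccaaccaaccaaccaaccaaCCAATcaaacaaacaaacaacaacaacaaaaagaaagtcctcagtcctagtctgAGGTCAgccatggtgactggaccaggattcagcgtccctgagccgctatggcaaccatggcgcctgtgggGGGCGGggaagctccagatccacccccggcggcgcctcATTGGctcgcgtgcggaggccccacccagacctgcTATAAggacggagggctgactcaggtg
The motifs, searched on both strands, were the core nuclear receptor hexamer AGGTCA, its direct repeat with a spacer of 1 base (DR1), the E-box CACGTG, the GC box GGGCGG, the CCAAT box CCAAT and the TATA box TATAA. The repeat contains the hexamer, and the E-box reads the same on both strands. The Cd36 window held the hexamer on the minus strand of the printed sequence, 1 CCAAT box and 2 GC boxes. The printed Plin5 window, that of the more upstream of 2 starts, held 1 hexamer, 1 GC box and 2 CCAAT boxes. It also held 1 TATA box that began 27 bases before the start. The other Plin5 window, at chr17:56117299-56117548 and not printed here, had 2 GC boxes as its only matches. The Plin4 window held a CCAAT box and a TATA box. Such matches are common, since the hexamer stood in 14% of 32851 RefSeq windows of the same length, the GC box in 32.7%, the CCAAT box in 33.8% and the TATA box in 22.8%. The direct repeat stood in 0.0335% and the E-box in 6.02% of all windows, and in none of the 11 windows of the 9 members that had one. These are matches of letters and say nothing of whether a factor was bound.

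The strain comparison over both sexes asks what the KK liver has more or less of, and 3 of the 10 members passed it, where 11.7% of all probe sets did. Plin4 and Cidec were higher in KK and Cd36 was lower. The median difference of the 10 was 0.06, beside 0.01 over all probe sets. In females 2 of the 10 were called, Plin5 higher and Cd36 lower in KK, beside 6.5% of all probe sets. In males 3 of the 10 were called, Cidec and Fitm2 higher and Cd36 lower in KK, beside 5.15%. Groups that did not overlap, counted without regard to the test, made up 20.6% of all probe sets in the females, 21.7% in the males and 5.98% with the sexes pooled. The median over the members was -0.06 in females and 0.10 in males. The comparisons share samples: each group enters a strain comparison, a sex comparison and the comparison over both sexes.

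Between the sexes of C57BL/6J the count was 1 of 10, Cd36, lower in males, where 1.03% of all probe sets were called. Between the sexes of KK it was 2 of 10, Cd36, lower in males, and Fitm2, higher in males, where 2.17% were called. The interaction subtracts the female strain difference from the male one, and it was called for 0 of 10 members by limma and for 0.141% of all probe sets. At an unadjusted limma p under 0.05 it held 3 of 10 members, Fitm2, Cidec and Plin5, where 6.35% of all probe sets did. For these 3 genes, each called in 1 sex, a strain effect that differs between the sexes was therefore not called.

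**Figure D1:**
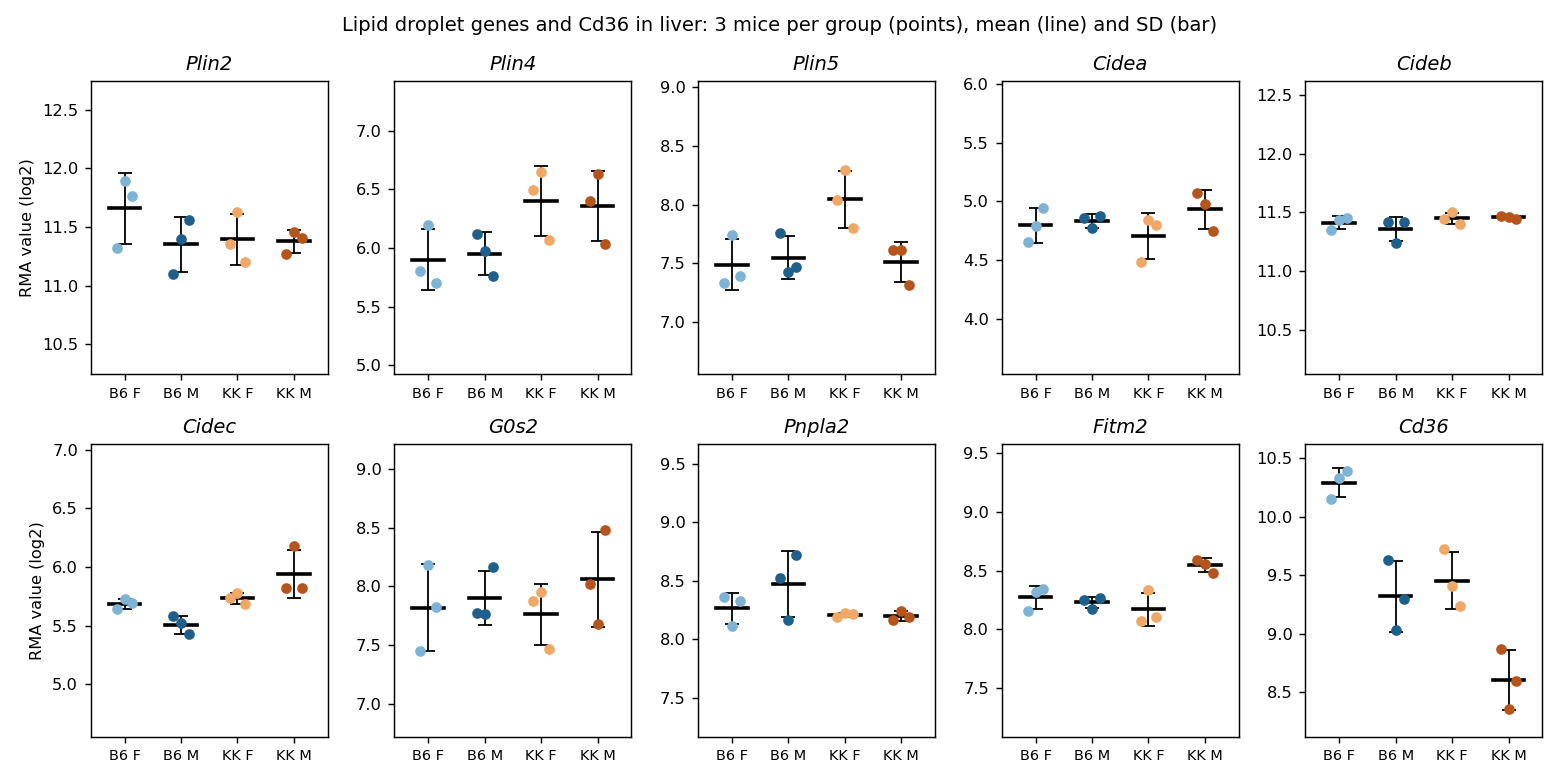
Log2 expression of each of the 10 genes in the 4 groups (B6 is C57BL/6J, F female, M male); points are mice, lines are means of 3 and bars are SDs. Every panel spans the same number of log2 units; Cd36 steps down from C57BL/6J females to KK males, with KK females and C57BL/6J males between them, and Fitm2 is high in KK males alone.

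Among the perilipins, Plin4 was higher in KK over both sexes. Plin4 codes for a coat protein best known from adipose tissue and muscle that covers small new droplets. Its values were 5.81, 6.19 and 5.70 in C57BL/6J females and 6.12, 5.97 and 5.76 in C57BL/6J males. They were 6.49, 6.65 and 6.07 in KK females and 6.40, 6.63 and 6.04 in KK males. In each KK sex 2 mice stood above all 6 C57BL/6J mice, and the remaining mouse lay among them, so the strains overlapped. That mouse was replicate 3 in both KK sexes, and replicate 3 was also the lowest in both C57BL/6J groups. The difference was 0.45 (SE 0.13, adjusted p = 0.0416), which is 1.37-fold. It was 0.50 in females (adjusted p = 0.158) and 0.40 in males (adjusted p = 0.291), neither called, and the sexes differed by 0.05 in C57BL/6J and -0.05 in KK. The call over both sexes was lost, with adjusted p of 0.0753 to 0.098 and differences of 0.38 to 0.46, without any single one of C57BL/6J female 1 or 3, C57BL/6J male 2 or 3, KK female 1 or 2, or KK male 1 or 2. With each array's interquartile range in the model the female difference was called as well (0.55, adjusted p = 0.0117). With the replicate number as a block, limma called it in females (adjusted p = 0.0102) and in males (adjusted p = 0.0329).

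Plin5, the perilipin that brings droplets to mitochondria and restrains lipolysis, was higher in KK females than in C57BL/6J females. The values were 8.04, 8.29 and 7.80 in KK females against 7.33, 7.74 and 7.39 in C57BL/6J females. The lowest KK female exceeded the highest C57BL/6J female by a small margin, and the groups did not overlap. The difference was 0.56 (SE 0.15, adjusted p = 0.0425), or 1.47-fold. In males the values were 7.61, 7.62 and 7.32 in KK and 7.76, 7.42 and 7.47 in C57BL/6J. These male groups overlapped, with a difference of -0.04 (95% interval -0.36 to 0.28, adjusted p = 0.933). KK males lay below KK females in every mouse, by -0.53, which missed the threshold (SE 0.15, adjusted p = 0.1). The interaction was -0.59 (95% interval -1.04 to -0.14, adjusted p = 0.670).

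The female call of Plin5 was among the least firm. It was lost, with adjusted p of 0.0527 to 0.153, without any one of C57BL/6J female 1 or 3, C57BL/6J male 2 or 3, KK female 1 or 2, or KK male 1 or 2, with differences of 0.43 to 0.56. It was also lost after quantile normalization (adjusted p = 0.0868), cyclic loess normalization (0.0733) and with only the groups compared in the fit (0.0902). Conversely, the sex difference in KK was called once each array's interquartile range was in the model (adjusted p = 0.0132, difference -0.70).

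Plin2, the most studied droplet coat gene of liver, had no called difference. Its values were 11.32, 11.89 and 11.76 in C57BL/6J females, 11.10, 11.40 and 11.56 in C57BL/6J males, 11.35, 11.63 and 11.20 in KK females and 11.27, 11.46 and 11.41 in KK males. All 4 groups overlapped. The strain difference over both sexes was -0.12 with a 95% interval of -0.36 to 0.13 (adjusted p = 0.644). For the mean over both sexes, an increase of Plin2 in KK of over 0.13 log2 thus lay outside the interval, while a decrease of up to 0.36 lay within it. In single sexes the intervals were wider, at -0.61 to 0.08 in females and -0.32 to 0.37 in males.

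Cidec, also known as Fsp27, which joins droplets at their contact sites, was higher in KK, and the male groups carried most of the difference. Values were 5.82, 6.17 and 5.82 in KK males against 5.58, 5.52 and 5.43 in C57BL/6J males. These groups did not overlap, and KK male 2 stood above the other 11 mice. The male difference was 0.43 (SE 0.09, adjusted p = 0.0177), or 1.35-fold. In females the values were 5.74, 5.78 and 5.68 in KK and 5.64, 5.73 and 5.69 in C57BL/6J, a difference of 0.05 (adjusted p = 0.907). Over both sexes the difference was 0.24 (SE 0.065, adjusted p = 0.0333). Cidec was lower in males than in females of C57BL/6J (-0.18, adjusted p = 0.713) and higher in KK (0.21, adjusted p = 0.305), with no overlap in either, and neither was called. Non-overlap of this kind was found for 13.1% and 18.6% of all probe sets in these comparisons.

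The Cidec call over both sexes was lost, with adjusted p of 0.0634 to 0.0799 and differences of 0.22 to 0.24, without any one of C57BL/6J female 1 or 3, C57BL/6J male 2 or 3, or KK female 1 or 2. The male call was lost without C57BL/6J male 2 (0.43, adjusted p = 0.0536) or male 3 (0.39, adjusted p = 0.0772), and with only the male groups in the fit (adjusted p = 0.0756).

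Cidea, which favours fat storage in brown fat and appears in fatty liver, was near the level of absent transcripts in all groups. Its values were 4.65, 4.79 and 4.95 in C57BL/6J females, 4.86, 4.77 and 4.87 in C57BL/6J males, 4.48, 4.84 and 4.80 in KK females and 5.07, 4.98 and 4.75 in KK males. KK female 1 and C57BL/6J female 1 lay within the absent range, and all 4 groups overlapped. The strain difference over both sexes was 0.01 (95% interval -0.17 to 0.18, adjusted p = 0.982). Cideb, the liver member of the family, which works in very low density lipoprotein assembly, was high and even, at 11.24 to 11.50 in all 12 mice. Its strain difference was 0.07 with a 95% interval of -0.03 to 0.17 (adjusted p = 0.477). The 3 KK males, at 11.47, 11.46 and 11.44, all lay above the C57BL/6J males, at 11.42, 11.24 and 11.42, by 0.10, which was not called.

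The lipase gene Pnpla2 and its inhibitor gene G0s2 had no called difference. Pnpla2 read 8.19, 8.22 and 8.21 in KK females and 8.16, 8.24 and 8.19 in KK males. It read 8.36, 8.12 and 8.33 in C57BL/6J females and 8.53, 8.16 and 8.72 in C57BL/6J males. The 6 KK mice were close together, whereas the C57BL/6J mice spread above and below them. The strain difference was -0.16 over both sexes (95% interval -0.35 to 0.02, adjusted p = 0.276) and -0.27 in males (95% interval -0.53 to -0.02, adjusted p = 0.262). Without C57BL/6J male 2 both passed the threshold, at -0.24 (adjusted p = 0.0270) and -0.43 (adjusted p = 0.0245). G0s2 varied among mice of a group more than any other member, with an SD of 0.40 in KK males (8.02, 7.68 and 8.48) and 0.37 in C57BL/6J females (7.45, 8.19 and 7.82). C57BL/6J males read 7.77, 7.76 and 8.17 and KK females 7.87, 7.95 and 7.46. All groups overlapped, and the strain difference was 0.05 with a 95% interval of -0.29 to 0.39 (adjusted p = 0.915).

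Fitm2, which is needed for normal droplet release from the endoplasmic reticulum, was highest in KK males. They read 8.60, 8.56 and 8.48, above all 9 other mice. KK females read 8.07, 8.33 and 8.11, C57BL/6J females 8.16, 8.32 and 8.34, and C57BL/6J males 8.25, 8.17 and 8.27. These 3 groups overlapped one another. KK males exceeded C57BL/6J males by 0.32 (SE 0.08, adjusted p = 0.0456) and KK females by 0.37 (SE 0.08, adjusted p = 0.0361), which is 1.30-fold for the latter. The strain difference in females was -0.10 (adjusted p = 0.656), and the interaction was 0.42 (SE 0.12, adjusted p = 0.420).

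Both calls of Fitm2 lay near the threshold. The male strain call was lost, with adjusted p of 0.0533 to 0.159 and differences of 0.29 to 0.35, without any one of C57BL/6J female 2 or 3, any C57BL/6J male, KK female 3 or any KK male, and under quantile normalization (0.0587) or an intensity trend with a robust prior (0.0603). The sex call in KK was lost, with adjusted p of 0.0502 to 0.174 and differences of 0.32 to 0.41, without any one of C57BL/6J male 1 or 3, KK female 1 or 3 or any KK male. It was also lost under quantile normalization (0.0516), with each array's interquartile range in the model (0.0694) and with only the groups compared (0.130).

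**Figure D2:**
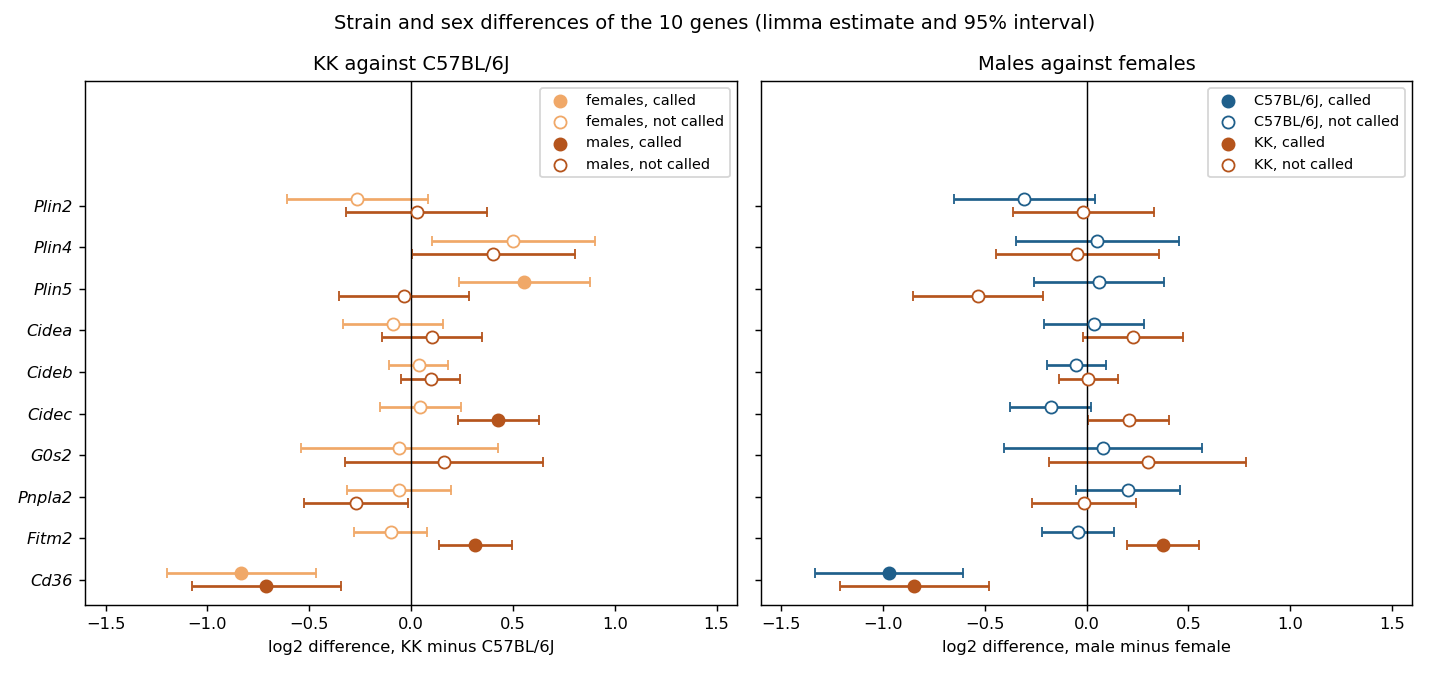
Estimated log2 differences of the 10 genes with 95% intervals from limma, KK minus C57BL/6J within each sex (left) and male minus female within each strain (right); filled points were called. Cd36 is lower in KK and lower in males in all 4 comparisons, Plin5 is called in females, and Cidec and Fitm2 are called in males.

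Cd36 had the widest range of group means among the members, 1.68 log2, and both strain and sex were called. It was highest in C57BL/6J females, at 10.15, 10.33 and 10.38, and lowest in KK males, at 8.87, 8.36 and 8.60. Between them lay KK females, at 9.72, 9.41 and 9.24, and C57BL/6J males, at 9.63, 9.03 and 9.30. The highest and the lowest group overlapped no other, while these 2 middle groups, with means of 9.45 and 9.32, overlapped each other. KK was lower over both sexes by -0.77 (SE 0.12, adjusted p = 0.000988), or 1.71-fold. The difference was -0.83 in females (SE 0.17, adjusted p = 0.0105) and -0.71 in males (SE 0.17, adjusted p = 0.0289).

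Males had less Cd36 RNA than females in both strains. The difference was -0.97 in C57BL/6J (SE 0.17, adjusted p = 0.0133), or 1.96-fold, and -0.85 in KK (SE 0.17, adjusted p = 0.0236), or 1.80-fold. The interaction was 0.12 with a 95% interval of -0.39 to 0.64 (adjusted p = 0.950), so a strain effect that differed between the sexes by up to 0.64 lay within the interval. The strain call over both sexes and that in females held under every alternative run, with adjusted p of at most 0.0035 and 0.0449. The male strain call was lost without C57BL/6J male 1 (-0.56, adjusted p = 0.103) or male 3 (-0.72, 0.0824), or KK male 2 (-0.59, 0.118) or male 3 (-0.71, 0.0674), with array weights (-0.53, 0.0528) and with only the male groups (0.0646).

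The sex call of Cd36 in C57BL/6J was lost without female 2 (-0.95, adjusted p = 0.0598), female 3 (-0.92, 0.0660), male 2 (-0.83, 0.0608) or male 3 (-0.96, 0.0626) of that strain. The sex call in KK was lost without KK female 1 (-0.71, adjusted p = 0.118), KK male 2 (-0.72, 0.108) or KK male 3 (-0.84, 0.0540). It was also lost with each array's interquartile range in the model (-0.79, 0.0511) and with only the KK groups in the fit (0.0658). The direction was the same in all of these.

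Markers of other liver cells that can carry Cd36 moved with some of these comparisons. In bulk liver, fewer cells of a type and less RNA per cell cannot be told apart. The summed linear level of 10 macrophage markers was 4459 to 5087 in C57BL/6J females, 3114 to 4727 in C57BL/6J males, 4371 to 7497 in KK females and 2142 to 2885 in KK males. Of these 10 markers 9 were called lower in KK males than in KK females, beside 2.17% of all probe sets, with a median difference of -1.05. In C57BL/6J 0 of 10 were called by sex, beside 1.03%, with a median of -0.36. All 10 sex differences were negative in each strain. Between the strains 3 of 10 were called lower in KK over both sexes (Clec4f, Marco and Adgre1), beside 11.7%, with a median of -0.34. In KK males 2 of 10 were called lower, beside 5.15%, with a median of -0.66. In KK females 1 of 10 was called lower, Marco (-0.81, adjusted p = 0.0391), beside 6.5%. The median there was 0.00, with 5 markers above 0 and 5 below. The part of macrophages in the differences of Cd36 was not tested.

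The summed level of 10 endothelial markers was 4862 to 5311 in C57BL/6J females, 3995 to 4364 in C57BL/6J males, 4407 to 5450 in KK females and 3836 to 4211 in KK males. Of the 10, 3 were called lower in KK over both sexes, beside 11.7% of all probe sets, with a median of -0.09. By sex 0 were called in C57BL/6J, beside 1.03%, with a median of -0.24. In KK males 2 were called lower than in KK females, beside 2.17%, with a median of -0.27. Their part in the differences of Cd36 was not tested. The summed level of 5 erythroid and neutrophil markers ran in the order opposite to Cd36 at the ends. It was 398 to 509 in C57BL/6J females and 991 to 1210 in C57BL/6J males. In KK it was 1050 to 1345 in females and 1714 to 1842 in males. Alas2, at 8.01 to 10.72, made up most of this sum, while Slc4a1 read 6.11 to 6.89. The neutrophil markers S100a8, S100a9 and Ngp read 4.08 to 4.45, 4.32 to 4.70 and 4.20 to 4.54. Between the sexes the median difference of the 5 was -0.01 in C57BL/6J and 0.04 in KK. Of these 5, Alas2, Slc4a1 and Ngp were called higher in KK over both sexes, but Ngp lay within the absent range in all mice. Only Alas2 was called by sex, higher in males of each strain. The part of blood cells in the differences of the members was not tested.

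White adipocyte markers were read as well, since Plin4, Cidec and Cd36 are known from adipose tissue. The summed level of 6 white adipocyte markers was 375 to 390 in C57BL/6J females, 372 to 411 in C57BL/6J males, 324 to 345 in KK females and 380 to 400 in KK males, and 0 of 6 were called in any comparison. Adiponectin (Adipoq), at 4.05 to 4.41, and leptin (Lep), at 4.10 to 4.33, lay within the absent range in all mice, and resistin (Retn) read 4.53 to 4.91. The other 3 lay above it, with Plin1 at 5.595 to 6.105, Fabp4 at 5.96 to 6.30 and Lipe at 7.14 to 7.82.

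**Figure D3:**
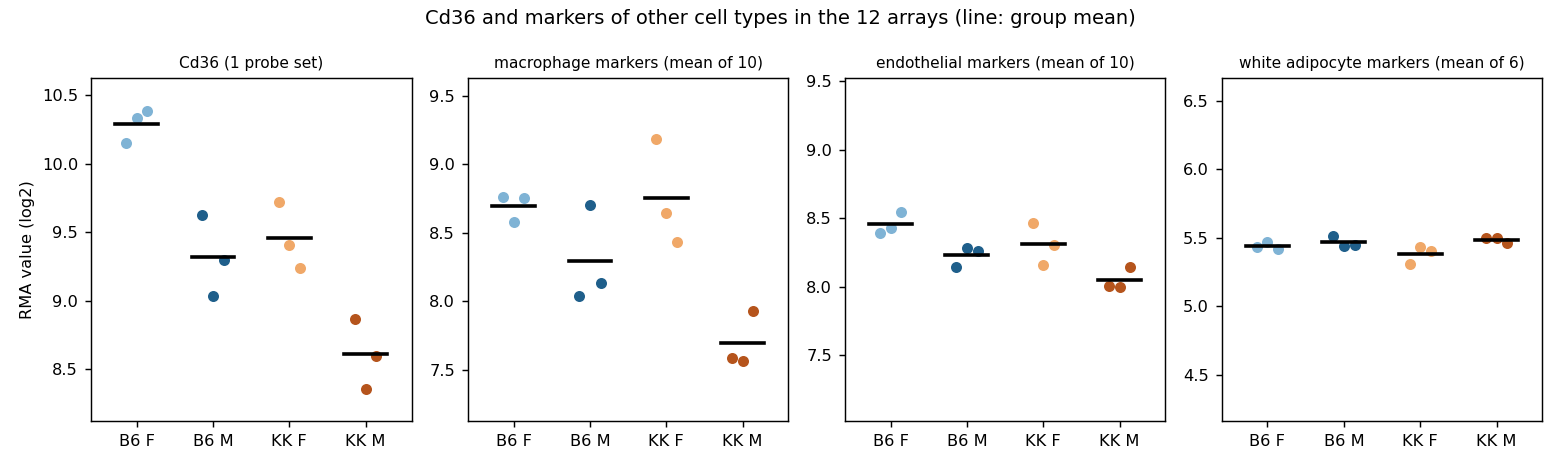
Log2 expression of Cd36 and the mean log2 level of the macrophage, endothelial and white adipocyte markers in each of the 12 mice (B6 is C57BL/6J; lines are group means). All panels span the same number of log2 units; the macrophage and endothelial means have their lowest group mean in KK males, as Cd36 does, and the macrophage means of KK females spread widely.

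Genes whose profile over the 12 arrays was most like that of Cd36 were sought by the root mean square difference of values centred on each gene's mean. The nearest 5 were Utp14b (0.23), Samd9l (0.25), Papss2 (0.25), Sult1a1 (0.26) and Rdh9 (0.26). Papss2 makes the sulphate donor that sulphotransferases such as Sult1a1 use, and Rdh9 codes for a retinol dehydrogenase. The group means of Papss2 were 10.92 in C57BL/6J females, 10.17 in KK females, 10.29 in C57BL/6J males and 9.62 in KK males. For Plin5, the member with the next widest range of group means (0.56), the nearest were Trp53inp2 (0.16), Arvcf (0.16), Arrdc2 (0.16), S1pr3 (0.17) and Tob2 (0.17). These lists describe likeness over 12 arrays in 4 groups and were not tested.

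The other genes of droplet biology were read from 4 lists with 67 genes, of which 62 were measured and 5 (Ldaf1, Ddhd2, Got2, Acsl1 and Nr1h2) were not analysed here. Over both sexes 10 of 62 were lower in KK and 1 was higher, with a median difference of -0.06. The share of all probe sets called in that comparison, 11.7%, is the background for this count and for those of the 4 lists, several of which lie near it. Of the 15 measured genes of droplet coat and assembly, 2 were lower and 0 higher. Hsd17b11, a droplet-bound steroid dehydrogenase gene, was lower by -0.37 (adjusted p = 0.0015), with no overlap between the strains. Acsl3, whose product activates fatty acids on new droplets, was lower by -0.73 (SE 0.12, adjusted p = 0.00206). Acsl3 values were 8.06, 8.39 and 8.42 in C57BL/6J females and 7.32, 7.72 and 7.58 in C57BL/6J males, against 7.497, 6.78 and 7.44 in KK females and 7.18, 7.004 and 7.23 in KK males. The strain difference of Acsl3 was -1.05 in females (adjusted p = 0.00318) and -0.40 in males (adjusted p = 0.269), and the interaction was not called (0.65, adjusted p = 0.716).

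Fitm1, the close relative of Fitm2, did not follow strain but sex. Males exceeded females by 1.41 in C57BL/6J (SE 0.13, adjusted p = 0.000104), or 2.65-fold, and by 1.503 in KK (SE 0.13, adjusted p = 8.75e-05), or 2.84-fold. The values were 8.35, 8.30 and 8.53 in C57BL/6J females and 8.14, 8.36 and 8.61 in KK females, against 9.90, 9.53 and 9.96 in C57BL/6J males and 9.88, 9.78 and 9.96 in KK males. All 6 males lay above all 6 females. The strain difference of Fitm1 was 0.03 (adjusted p = 0.922). Fitm2 differed by -0.04 between the sexes of C57BL/6J (adjusted p = 0.999), whereas in KK it was higher in males, as Fitm1 was, by 0.37 (adjusted p = 0.0361).

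Of the 9 measured genes of lipolysis, 2 were lower in KK and 0 higher, and the median difference was 0.02. The monoacylglycerol lipase gene Abhd6 was lower by -0.93 (SE 0.053, adjusted p = 2.9e-07) and the arylacetamide deacetylase gene Aadac by -0.87 (SE 0.061, adjusted p = 1.77e-06). Abhd6 read 9.54, 9.51 and 9.66 in C57BL/6J females and 9.22, 9.22 and 9.43 in C57BL/6J males, against 8.60, 8.53 and 8.56 in KK females and 8.45, 8.37 and 8.49 in KK males. For both genes all 6 KK mice lay below all 6 C57BL/6J mice. The call held in each sex, at -1.005 and -0.86 for Abhd6 and -0.76 and -0.98 for Aadac in females and males. Lipa, the lysosomal acid lipase gene, was lower in males of C57BL/6J (-0.43, adjusted p = 0.016) and of KK (-0.52, adjusted p = 0.00398). The call in C57BL/6J was lost, with adjusted p of 0.0579 to 0.0799 and differences of -0.43 to -0.38, without female 1 or 3 or any male of that strain.

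Of the 18 measured genes of fatty acid uptake and activation, 4 were lower in KK and 0 higher, with a median of -0.07. They were the fatty acid transport genes Slc27a5 (-0.64, adjusted p = 3.55e-06) and Slc27a1 (-0.43, adjusted p = 0.000256), the lipoprotein receptor gene Scarb1 (-0.38, adjusted p = 0.00148) and the very low density lipoprotein receptor gene Vldlr (-0.46, adjusted p = 0.00228). In females these 4 and Lpl were called lower in KK, 5 of 18 beside 6.5% of all probe sets. In males only Slc27a5 was called, 1 of 18 beside 5.15%. Like Cd36, Vldlr was highest in C57BL/6J females, at 5.99, 6.27 and 6.28. The other groups read 5.44, 5.31 and 5.06 in C57BL/6J males, 5.37, 5.30 and 5.17 in KK females and 5.33, 5.31 and 5.09 in KK males, and overlapped one another. Vldlr was lower in KK females by -0.90 (adjusted p = 0.000435) and in C57BL/6J males by -0.90 (adjusted p = 0.00126). Its sex difference within KK was -0.03 (adjusted p = 0.903), where that of Cd36 was -0.85. The Vldlr interaction was 0.87 (SE 0.16, adjusted p = 0.0872).

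Lpl, the lipoprotein lipase gene, was higher in KK males than in KK females by 1.41 (SE 0.17, adjusted p = 0.00133), or 2.65-fold. It read 7.82, 7.82 and 7.90 in KK males and 6.48, 6.17 and 6.68 in KK females, against 6.89, 7.67 and 7.32 in C57BL/6J males and 7.13, 7.01 and 7.24 in C57BL/6J females. KK females were the lowest group and KK males the highest, without overlap with any other group. The strain difference of Lpl was -0.69 in females (adjusted p = 0.0318) and 0.55 in males (adjusted p = 0.0932), and the interaction was 1.24 (SE 0.24, adjusted p = 0.1002). The female strain call was lost, with adjusted p of 0.0587 to 0.111 and differences of -0.75 to -0.55, without any C57BL/6J female or KK female 1 or 2.

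Of the 20 measured regulators of these genes, 2 were lower in KK and 1 higher, with a median of 0.01. Ahr, the aryl hydrocarbon receptor gene, was lower by -0.53 (adjusted p = 0.000322), and all 6 KK mice lay below all 6 C57BL/6J mice. Its call in males (-0.49, adjusted p = 0.0124) was lost without C57BL/6J male 1 (-0.44, adjusted p = 0.0535) and with only the male groups (adjusted p = 0.0545). Cebpb, a transcription factor gene of fat cell formation, was higher by 0.37 (adjusted p = 0.0111) over both sexes. In females Cebpb differed by 0.50 (adjusted p = 0.0241), a call lost without C57BL/6J female 2 (0.45, adjusted p = 0.0962), C57BL/6J female 3 (0.47, 0.0866) or KK female 3 (0.42, 0.0899). Nr1i3, the gene of the xenobiotic receptor CAR, was lower by -0.25 (adjusted p = 0.0369). That call was lost without any one of C57BL/6J female 2 or 3, C57BL/6J male 1 or 3, KK female 2 or 3, or KK male 1 or 2 (adjusted p 0.0655 to 0.0899, differences -0.26 to -0.20), and under quantile (-0.18, 0.123) or loess (-0.21, 0.0720) normalization.

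Ppargc1a, a coactivator gene of oxidative metabolism, was lower in KK males than in KK females (-0.70, adjusted p = 0.0213). The call was lost without KK female 1 or 2 or KK male 1 or 2 (adjusted p 0.0581 to 0.111, differences -0.74 to -0.60) and with only the KK groups (adjusted p = 0.0880). Pparg, a nuclear receptor known to drive several droplet genes in fatty liver, was singled out after its values were seen. It read 7.48, 7.33 and 8.28 in KK males, above the C57BL/6J males at 6.93, 7.05 and 7.06, with a difference of 0.68 that was not called (adjusted p = 0.0995). With each array's interquartile range in the model Pparg was called in males and over both sexes. In females the difference of Pparg was 0.00 (adjusted p = 1). Ppara, the nuclear receptor of the fasting liver, likewise chosen afterwards, differed by 0.08 between the strains (SE 0.075, adjusted p = 0.624).

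**Figure D4:**
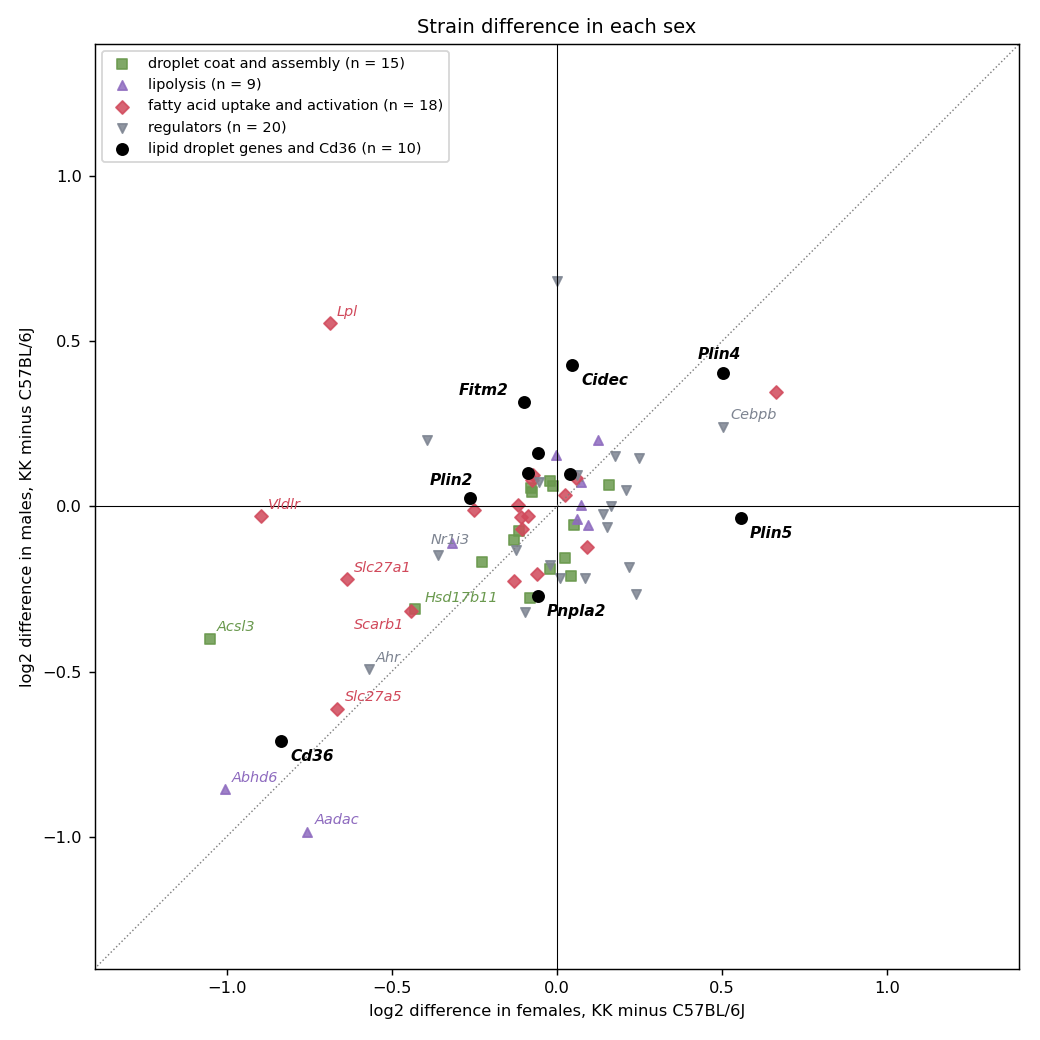
Log2 strain difference (KK minus C57BL/6J) in females on the horizontal axis and in males on the vertical axis, for the 10 genes (black) and the 62 measured genes of the 4 lists (coloured); the dotted line marks equal differences, and coloured genes called over both sexes, and Lpl, are named. Cd36, Abhd6, Aadac, Slc27a5 and Ahr are called lower in both sexes. Cidec and Fitm2 are called in males and Plin5 in females, and the interaction is called for none of these genes.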

How the data were processed

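Liver RNA of 12 mice was hybridised to 12 arrays. Per the submitters' processing notes, the authors used RMA and the affy package, versions not given in the sources used here, and the deposited values are log2 levels for 21212 probe sets. The aligner, build and probe mapping are not given there. Scanner files and single probes were not used here, so background correction was not repeated and sequence differences between the strains under the probes were not examined.

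All 12 arrays were fitted in R 4.3.3 with limma 3.58.1 (lmFit, eBayes), with 1 mean per strain and sex and a total of 11.99 degrees of freedom. Tests were two-sided, no probe set was left out, and p-values were adjusted by Benjamini-Hochberg over all probe sets within each of 6 comparisons. Intervals are 95%, from the fit. The fit was tested on simulated data with noise drawn independently for each array, so that test does not cover deviations shared between arrays. Symbols came from the platform's annotation: 18786 probe sets had 1 symbol, 6 several and 2420 none. Promoter windows came from RefSeq (GRCm38.p6) and were found for 9 of 10 members.

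The members and gene lists were chosen with earlier results of these data known. The genes named were all members and, per list, up to 4 with the smallest adjusted p among those called over both sexes, up to 2 among those called in each other comparison, and the 5 most alike to each of the 2 members with the widest range. Alternatives were quantile or loess normalization, leaving out the dimmer probe sets or keeping the brightest one for each gene, an intensity-dependent and robust prior, array weights, a replicate block, the interquartile range in the model, fits to fewer groups, and leaving out each array.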

Additional observations from a re-analysis of the deposited data

How the results depend on the processing

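Of the direction and call of single genes under the alternatives, 1755 stayed as they were, 94 lost the call, 7 gained it and 51 changed sign, and every change of sign was in a difference that was not called. Neither quantile nor loess normalization moved the median of all probe sets by 0.1 or more in any comparison. Among the members and the list genes called in the main fit, restricting it to probe sets above the median mean left out Cidea, Cidec and Vldlr. These have no value there. List genes that were not called, such as Hilpda, Slc27a3, Slc27a6 and Fabp5, were left out as well.

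The count of members called in females (2) became 1 after quantile normalization, 1 after cyclic loess and 1 with only the groups compared. In males (3) it became 1 with only the groups compared. The male call of Fitm2 was also lost after quantile normalization and with an intensity trend and robust prior, and that of Cd36 with array weights. Between the sexes of KK (2) it became 1 after quantile normalization, 1 with the interquartile range of the arrays in the model and 0 with only the groups compared, all by limma. In that last fit Cd36 and Fitm2 had adjusted p of 0.0658 and 0.130. Leaving out each array in turn gave 1 to 3 members over both sexes, 1 to 2 in females, 0 to 3 in males, 0 to 1 between the sexes of C57BL/6J and 0 to 2 between those of KK.

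The count of the other 62 genes called over both sexes (11) became 17 with the interquartile range in the model. In males (4) it became 13 with array weights and 7 with the interquartile range. In C57BL/6J between the sexes (3) it became 5 after loess and 7 with the interquartile range, and in KK (4) it became 7 after quantile normalization, 7 after loess and 11 with array weights. For the interaction (0) it became 1 with array weights (Vldlr) and 1 with the interquartile range (Lpl), and 0 to 1 when an array was left out.

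Samples of the same replicate number did not move together throughout: of 18 pairs, 10 had deviations correlated above 0.1 (range -0.36 to 0.48), and 8 of 12 arrays correlated best with their own number. Some arrays of the same number thus moved together, with correlations of up to 0.48, while others did not. The labels name no batch, and the source of this was not tested. The main fit took no account of the replicate number. With it as a block, the other genes called rose to 7 in males and to 7 between the sexes of KK, and the members called were 3 over both sexes, 3 in females, 4 in males, 1 between the sexes of C57BL/6J and 3 between those of KK. The members added under the block were Plin4 in females (adjusted p = 0.0102) and in males (adjusted p = 0.0329) and Plin5 between the sexes of KK (adjusted p = 0.0458). Among the other genes, Pparg, Hsd17b11 and Faf2 were added in males.

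The differences that changed sign were small. The strain difference of Cidea over both sexes became -0.0099 after quantile normalization, -0.0093 after loess and -0.0045 with the interquartile range. With array weights the female strain difference became 0.0019 for Cidea and 0.0070 for G0s2, the male one became -0.0216 for Plin2 and 0.0333 for Plin5, the sex difference became 0.0033 for Fitm2 in C57BL/6J and 0.1191 for Plin4 in KK, and the Plin4 interaction became 0.0017. The male strain difference of Plin5 became 0.0079 after quantile normalization. In KK the sex difference of Plin2 became 0.0008 after loess, and that of Pnpla2 became 0.0472 after quantile normalization, 0.0315 after loess and 0.0434 with the interquartile range. The cause of these changes was not tested.

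When each array was left out in turn, these differences also crossed 0. Over both sexes Cidea ran from -0.03 to 0.062 and G0s2 from -0.0534 to 0.148. In females Cidea ran from -0.1603 to 0.0236 and G0s2 from -0.2422 to 0.1264. In males Plin2 ran from -0.1004 to 0.1304, Plin5 from -0.0989 to 0.0684 and G0s2 from -0.0495 to 0.3533. Between the sexes of C57BL/6J Plin4 ran from -0.0475 to 0.1986, Plin5 from -0.0436 to 0.1862, Cidea from -0.0346 to 0.1131, Cideb from -0.0816 to 0.0093 and G0s2 from -0.1039 to 0.2647. Between the sexes of KK Plin2 ran from -0.1132 to 0.1002, Plin4 from -0.214 to 0.1147, Cideb from -0.0156 to 0.0342 and Pnpla2 from -0.0329 to 0.0071. The interaction ran from -0.2661 to 0.0626 for Plin4, from -0.0003 to 0.0905 for Cideb and from -0.0199 to 0.2788 for Cd36. With 3 mice per group and no detection calls, the precision of all these values is limited by the number of arrays.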
